A study of Mus musculus with 6 samples.

Results

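The 10 genes described here encode the enzymes that make serine and pass its carbon to folate. They were chosen by name, with earlier results of these data known. Phgdh, Psat1 and Psph stand for serine synthesis, and Shmt2, Mthfd2, Mthfd2l, Mthfd1l and Aldh1l2 for the mitochondrial arm of folate metabolism. Shmt1 and Mthfd1 stand for the cytosolic arm. All 10 passed the filter on low counts, among 12669 genes tested of 55487 listed. They were measured by polyA RNA-seq in B16F10, a mouse melanoma cell line grown in DMEM with 10% FBS, which supplies serine and glycine. Control cells (shCtr, genotype WT in the labels, n = 3) carried a scrambled shRNA, and knock-down cells (shOSGEP, genotype KD OSGEP, n = 3) carried the hairpin numbered 2 against Osgep, the catalytic subunit of the complex that makes the t6A modification of tRNAs. Both groups were infected with lentivirus, selected with puromycin and sequenced from independent infections, and only 1 hairpin was sequenced.

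Serine is built from the glycolytic intermediate 3-phosphoglycerate in successive steps by Phgdh, Psat1 and Psph. Shmt2 in mitochondria and Shmt1 in the cytosol then split serine into glycine and a one-carbon unit carried by tetrahydrofolate, and the enzymes downstream oxidise that unit, release it as formate or use it for purines and thymidylate. The pathway is known for feeding nucleotide synthesis in proliferating cells and for containing several targets of the stress-induced transcription factor ATF4.

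Library totals ranged from 18915587 to 29487384 counts, so that 3 counts, taken as the floor, equalled 0.116 to 0.147 CPM (counts scaled to the size of the library, here with TMM factors). The members together held 0.144%, 0.209% and 0.205% of all counts in shCtr replicates 1, 2 and 3, and 0.235%, 0.348% and 0.282% in shOSGEP. Libraries with the number 2 stood apart in both groups: log2 CPM correlated between shCtr libraries at 0.776 to 0.966, with both lower values in pairs that held replicate 2, and between shOSGEP libraries at 0.877 to 0.953 in the same way, so the values of each member, of the arms and of the enzyme ratios are also given without both replicate 2 libraries. A trend over GC content and transcript length described 50.9%, 63.5% and 24.7% of the variance around the gene means in shCtr replicates 1, 2 and 3. In shOSGEP replicates 1, 2 and 3 it described 54%, 17.6% and 22.5%. Osgep itself was lower in every shOSGEP library, most of all in replicate 2 (0.542 CPM against 4.28 and 5.52 CPM). Each of 7 melanocyte markers was detected and had a Log2FC below 0, with a summed level of 17038 to 29599 CPM in shCtr and 3551 to 18083 CPM in shOSGEP, where the lowest value was replicate 2. Their part in the results below was not tested. Of 7 markers of leukocytes, endothelium and keratinocytes, 1 was high enough to test, Ptprc, Cd3e and Cdh5 had no count, and the summed level was at most 7.52 CPM.

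The mRNAs of Aldh1l2 and Psph were higher in shOSGEP cells, by 5.50-fold and 2.82-fold. In the main fit, which had no block for the replicate number, they were the only members past the threshold of the study (Log2FC beyond 0.5 either way with an unadjusted p under 0.05). Mthfd2 was also higher in each shOSGEP library than in any shCtr library, by 1.91-fold, but missed that threshold in the main fit. With a replicate block it passed, as did Aldh1l2 and Psph, but Mthfd2 passed in only 7 of 19 other fits and library sets. Shmt1 and Mthfd1, the cytosolic enzymes, had lower means in shOSGEP and did not pass. In bulk RNA, a change in every cell and a change in the share of cells cannot be told apart. The remaining members, Phgdh, Psat1, Shmt2, Mthfd1l and Mthfd2l, had groups that overlapped. With p adjusted by Benjamini-Hochberg over all genes in the quasi-likelihood test of edgeR, each member had an adjusted p of 1.00. No gene came under 0.05 (0% of 12669). An unadjusted p under 0.05 was found for 256 genes, fewer than that threshold would call among 12669 genes without any difference. At an adjusted p under 0.05, DESeq2 called 14 genes, 1 of them a member, and limma-voom with sample quality weights 3 genes. With a replicate block added, limma-voom called 1403 genes, 6 of them members.

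Against all genes tested, 2 of 10 members passed the study threshold upwards, where 1.59% of genes did, and 0 downwards, where 0.426% did. Groups did not overlap for 3 members that were higher in shOSGEP (3.49% of all genes) and for 0 that were lower (2.87%). Comparing shOSGEP with the shCtr library of the same number, 5 members were higher in 3 of 3 comparisons (17.6% of all genes) and 2 were lower in 3 of 3 (17.2%). Of the 10 members, 6 had a Log2FC above 0, as had 47.3% of all genes, and the median Log2FC was 0.31 over members and -0.03 over all genes. No test was made of these counts, because the members were chosen with earlier results of these data known.

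**Figure D1:**
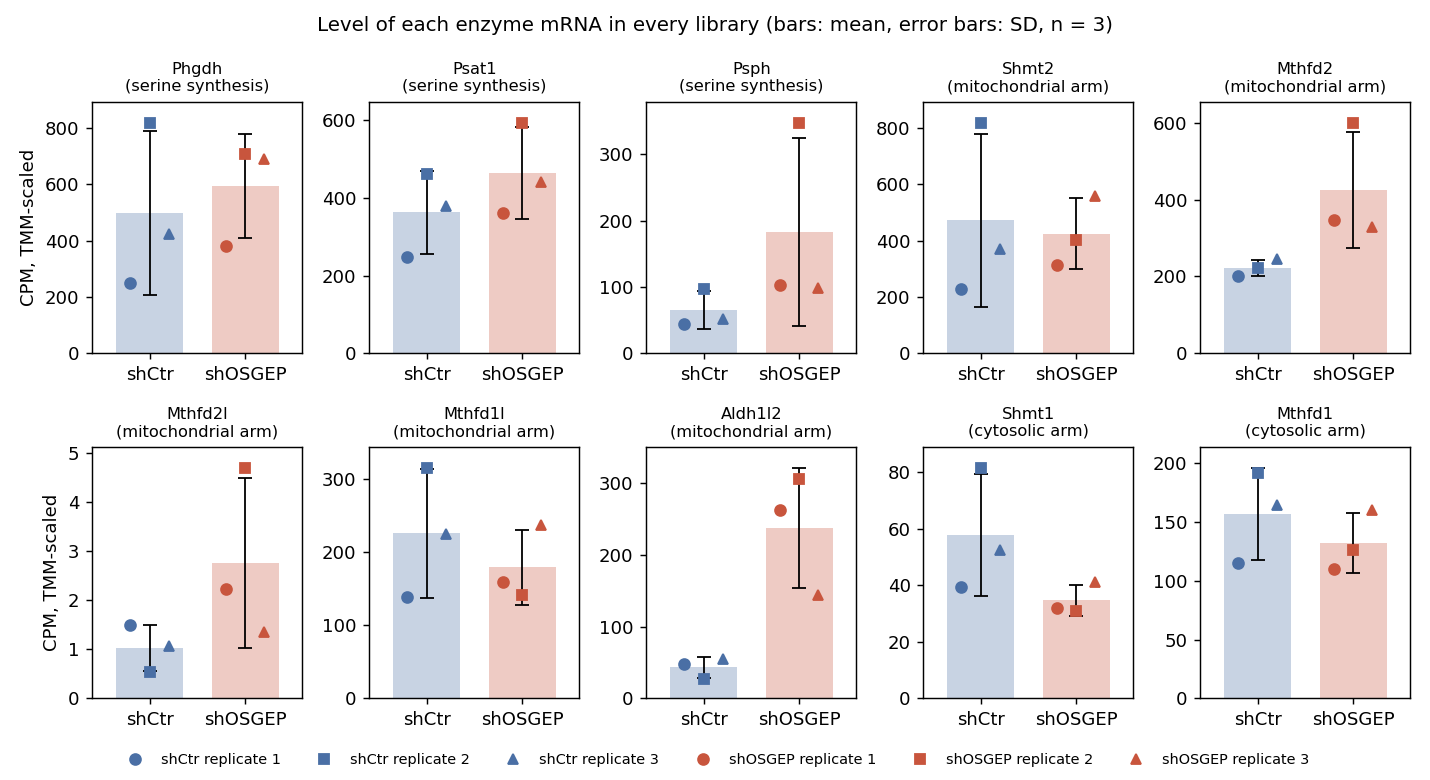
TMM-scaled CPM (y axis, from 0, own scale per panel) of the 10 enzyme mRNAs in shCtr and shOSGEP cells, with bars for the mean, error bars for the SD (n = 3) and a symbol for each library. For Psph, Mthfd2 and Aldh1l2 every shOSGEP symbol lies above every shCtr symbol, and in the other 7 panels the groups overlap.

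Psph (chromosome 5, 129765558 to 129787449, minus strand, GRCm38) encodes phosphoserine phosphatase, the last step of serine synthesis. Its promoter window is printed because the groups did not overlap for this gene, with a match to TGACGT, the core of sites for CREB and ATF proteins, in capitals on the other strand. The window runs from 250 bases before to 50 after the start in RefSeq (GRCm38.p6, chr5:129787204-129787503, minus strand).
Psph: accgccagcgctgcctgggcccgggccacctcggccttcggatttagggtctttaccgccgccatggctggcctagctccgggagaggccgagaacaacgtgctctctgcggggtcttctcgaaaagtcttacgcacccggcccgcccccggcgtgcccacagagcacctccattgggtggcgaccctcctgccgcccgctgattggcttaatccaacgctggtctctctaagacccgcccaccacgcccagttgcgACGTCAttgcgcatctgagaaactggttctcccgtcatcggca
The match begins 7 bases after the RefSeq start. The sequence TGACGT was found on either strand in 2 of the 9 members with a window, Psph and Mthfd1l, and in 7.51% of 32851 windows. No window was available for Aldh1l2, so the motif counts here and below do not cover it. It was chosen after the windows were seen, and a match does not show that a factor binds there.

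The Psph level was 44.9, 97.6 and 52.0 CPM in shCtr replicates 1, 2 and 3, and 103.2, 347.3 and 98.1 CPM in shOSGEP. The groups did not overlap, but the highest shCtr library and the lowest shOSGEP library were separated by less than 1 CPM, and shOSGEP replicate 2 lay far above the others. The means were 64.8 ± 28.6 and 182.9 ± 142.4 CPM (SD, n = 3), and Log2FC was 1.50 (SE 0.618, edgeR unadjusted p = 0.0407, adjusted p = 1.00). Within numbers the log2 ratios were 1.20, 1.83 and 0.92, so that the gain was present in each. Without shOSGEP replicate 2 the Log2FC was 0.66 (edgeR unadjusted p = 0.216, adjusted p = 0.994), and without both replicate 2 libraries it was 1.06 (unadjusted p = 0.00748, adjusted p = 1.00). The call also ended without shCtr replicate 1 (Log2FC 1.29), shCtr replicate 3 (Log2FC 1.36) or both replicate 3 libraries (Log2FC 1.65, edgeR unadjusted p = 0.108). Psph shares 452 exon bases with Cct6a on the opposite strand, and reads could not be separated by strand. Cct6a had a Log2FC of 0.13 (SE 0.396).

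Phgdh (chromosome 3, 98313170 to 98339990, minus strand), the dehydrogenase that commits 3-phosphoglycerate to serine synthesis, was measured at 249.6, 818.3 and 423.8 CPM in shCtr, against 381.0, 709.3 and 690.3 CPM in shOSGEP. The groups overlapped: shCtr replicate 2 was the highest of all 6 libraries, and shOSGEP replicate 1 lay below shCtr replicate 3. The means were 497.2 ± 291.4 and 593.5 ± 184.3 CPM (SD, n = 3), a Log2FC of 0.26 (SE 0.545). The shOSGEP library was the higher for numbers 1 and 3 (log2 ratios 0.61 and 0.70) and the lower for number 2 (-0.21). Without both replicate 2 libraries the Log2FC was 0.68 (SE 0.446), without shCtr replicate 2 alone it was 0.82, and without shCtr replicate 1 it was -0.06. Phgdh mRNA is rich in GC (57.2%), and the GC and length trend of shCtr replicate 2 placed it 0.98 log2 units above its mean, next to an observed 0.70. With offsets for GC content and length together with the replicate block, Phgdh passed the study threshold (Log2FC 0.60, edgeR unadjusted p = 0.0214, adjusted p = 0.531). Phgdh shares 56.3% of its 31-base words with other genes, most with the pseudogene Gm7901, although 20 such pseudogenes received at most 0.422% of the reads assigned to Phgdh and them.

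Psat1 (chromosome 19, 15904678 to 15947337, minus strand), the aminotransferase of the middle step, stood at 248.2, 461.1 and 378.7 CPM in shCtr, against 360.6, 592.9 and 440.5 CPM in shOSGEP. Each shOSGEP library exceeded the shCtr library of its number, yet replicate 1 of shOSGEP lay below replicates 2 and 3 of shCtr. The means were 362.7 ± 107.3 and 464.7 ± 118.0 CPM (SD, n = 3), and Log2FC was 0.36 (SE 0.434). It was 0.36 (SE 0.346) without both replicate 2 libraries too, and stayed between 0.15 and 0.57 in 19 other fits and library sets.

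Aldh1l2 (chromosome 10, 83487450 to 83534140, minus strand) encodes the mitochondrial 10-formyltetrahydrofolate dehydrogenase, which oxidises the carried one-carbon unit to carbon dioxide and reduces NADP. Its level was 47.8, 27.3 and 54.6 CPM in shCtr replicates 1, 2 and 3, against 262.7, 305.9 and 144.5 CPM in shOSGEP. The lowest shOSGEP library, replicate 3, was well above the highest shCtr library, also replicate 3. The means were 43.2 ± 14.2 and 237.7 ± 83.6 CPM (SD, n = 3), and Log2FC was 2.46 (SE 0.486, edgeR unadjusted p = 0.000877, adjusted p = 1.00), and the log2 ratio was 2.46, 3.48 and 1.4 within numbers 1, 2 and 3. Without both replicate 2 libraries the Log2FC was 1.99 (SE 0.376). In shCtr replicate 2 the GC and length trend gave Aldh1l2 a deviation of -0.88 log2 units, next to an observed -1.82. With GC and length offsets and the block the Log2FC was 2.28. The study threshold was passed in 19 of 19 other fits and library sets, with Log2FC from 1.87 to 2.92, and DESeq2 gave an adjusted p of 0.0109, in a range from 3.11e-42 with limma-voom and the block to 1.00. Aldh1l2 shares 1056 exon bases with D10Wsu102e on the opposite strand, for which the Log2FC was -0.16 (SE 0.407).

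Mthfd2 (chromosome 6, 83305691 to 83325908, minus strand) encodes the mitochondrial dehydrogenase and cyclohydrolase that turns methylene- into formyl-tetrahydrofolate. Its promoter window is shown for the letters TGATG, the first part of the C/EBP-ATF response element that ATF4 binds, in capitals (RefSeq, GRCm38.p6, chr6:83317555-83317854, minus strand).
Mthfd2: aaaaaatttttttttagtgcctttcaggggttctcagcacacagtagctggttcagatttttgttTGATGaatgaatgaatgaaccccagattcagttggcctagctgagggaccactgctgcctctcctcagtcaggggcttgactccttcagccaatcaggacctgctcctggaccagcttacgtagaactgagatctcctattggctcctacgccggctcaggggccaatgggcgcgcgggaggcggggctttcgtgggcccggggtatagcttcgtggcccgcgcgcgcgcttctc
The capitals begin 185 bases before the RefSeq start, which lies inside the gene span given above. The longer motif TGATGNAA, searched on both strands, was found in 0 of the 10 windows of 9 members and in 3.97% of windows. TGATG alone, which the longer motif contains, was found in 3 members (Mthfd2, Mthfd1l and Mthfd1) and in 39.3% of windows. CACGTG, a letter set bound by MYC, was in 0 members and 7.15% of windows. The shorter motifs were chosen after the windows were seen. Motif shares here and above leave out the windows of a chromosome that holds no member.

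Mthfd2 was measured at 201.3, 220.9 and 244.7 CPM in shCtr, against 347.1, 599.3 and 330.0 CPM in shOSGEP. The shCtr values were close to each other, and all 3 shOSGEP libraries were higher, with replicate 2 the highest. The means were 222.3 ± 21.7 and 425.5 ± 150.8 CPM (SD, n = 3), and Log2FC was 0.94 (SE 0.418, edgeR unadjusted p = 0.0542, adjusted p = 1.00). With the replicate block the Log2FC was 0.88 and the study threshold was passed (edgeR unadjusted p = 0.0379, adjusted p = 0.741), with adjusted p from 8.91e-05 with limma-voom and the block to 1.00 over the other fits. Without both replicate 2 libraries the Log2FC was 0.60 (SE 0.291). The study threshold was passed in 7 of 19 other fits and library sets. It was missed with DESeq2, with RLE scaling, without a filter and whenever libraries were left out. No 31-base word of Mthfd2 was shared with another gene.

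Its paralog Mthfd2l (chromosome 5, 90931117 to 91021368, plus strand), which carries out a similar reaction in mitochondria, was scarce: 35, 11 and 23 counts in shCtr and 48, 121 and 32 counts in shOSGEP. These equal 1.49, 0.541 and 1.06 CPM against 2.23, 4.69 and 1.36 CPM, and the lowest shOSGEP library was below the highest shCtr library. The means were 1.03 ± 0.474 and 2.76 ± 1.73 CPM (SD, n = 3). In shCtr replicate 2 the GC and length trend gave a deviation of -1.09 log2 units, next to an observed -1.37. The Log2FC was 1.42 (SE 0.684), but 0.49 (SE 0.557) without both replicate 2 libraries, since number 2 alone gave a log2 ratio of 2.93 against 0.56 and 0.33 for numbers 1 and 3.

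Shmt2 (chromosome 10, 127517123 to 127522444, minus strand), the mitochondrial hydroxymethyltransferase that takes the one-carbon unit from serine, stood at 229.1, 817.3 and 368.8 CPM in shCtr, against 311.7, 403.0 and 559.4 CPM in shOSGEP. The groups overlapped, and shCtr replicate 2 was again the highest library. The means were 471.7 ± 307.3 and 424.7 ± 125.3 CPM (SD, n = 3), for a Log2FC of -0.15 (SE 0.552). The shOSGEP library was higher for numbers 1 and 3 (log2 ratios 0.44 and 0.60) and lower for number 2 (-1.02), and without both replicate 2 libraries the Log2FC was 0.55 (SE 0.430). Shmt2 is the member richest in GC (57.4%), and the GC and length trend placed it 0.89 log2 units above its mean in shCtr replicate 2, beside an observed 0.99.

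Mthfd1l (chromosome 10, 3973118 to 4167081, plus strand), the mitochondrial ligase that frees formate, was measured at 138.1, 314.2 and 224.1 CPM in shCtr, against 158.6, 141.5 and 237.0 CPM in shOSGEP. Number 2 again went against the others, with a log2 ratio of -1.15 against 0.20 and 0.08. The means were 225.5 ± 88.1 and 179.0 ± 50.9 CPM (SD, n = 3). The Log2FC was -0.33 (SE 0.452) with and 0.13 (SE 0.383) without both replicate 2 libraries. Here the GC and length trend gave a deviation of 0.12 log2 units in shCtr replicate 2 next to an observed 0.70.

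In the cytosolic arm, Shmt1 (chromosome 11, 60788104 to 60811718, minus strand), the cytosolic counterpart of Shmt2, was measured at 39.5, 81.5 and 52.4 CPM in shCtr, against 32.0, 31.1 and 41.1 CPM in shOSGEP. Only shOSGEP replicate 3 lay above the lowest shCtr library. The means were 57.8 ± 21.5 and 34.7 ± 5.51 CPM (SD, n = 3), 1.66-fold lower in shOSGEP, with a Log2FC of -0.73 (SE 0.431, edgeR unadjusted p = 0.125, adjusted p = 1.00). Shmt1 was lower in 3 of 3 comparisons within numbers (-0.30, -1.39 and -0.35), and the Log2FC was -0.33 without both replicate 2 libraries.

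Mthfd1 (chromosome 12, 76255298 to 76319803, plus strand), the cytosolic enzyme that joins dehydrogenase, cyclohydrolase and formate ligase activities in 1 protein, stood at 114.7, 191.3 and 164.1 CPM in shCtr, against 110.1, 125.8 and 160.1 CPM in shOSGEP. The values of numbers 1 and 3 were nearly level between the groups (log2 ratios -0.06 and -0.04), and number 2 differed (-0.60). The means were 156.7 ± 38.8 and 132.0 ± 25.5 CPM (SD, n = 3). The Log2FC was -0.25 (SE 0.395) with all libraries and -0.04 (SE 0.347) without both replicate 2 libraries.

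**Figure D2:**
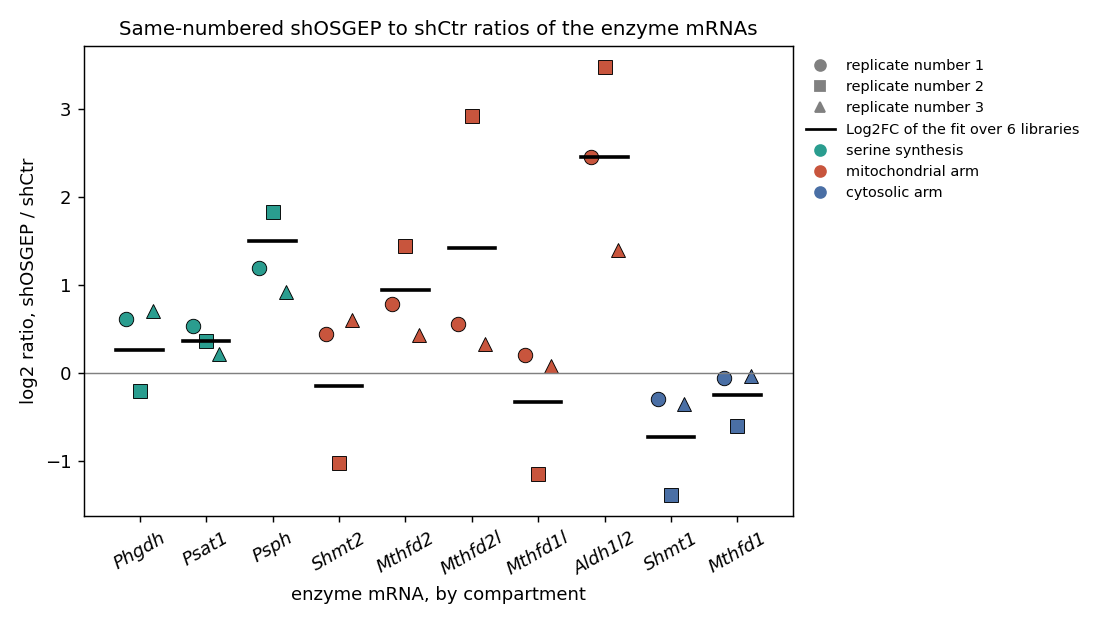
Log2 ratio of shOSGEP to shCtr CPM (y axis) for libraries of the same replicate number, for each enzyme mRNA (x axis), with colours for the compartment, symbols for the number and a line for the Log2FC of the fit over 6 libraries. Number 2 lies farthest from 0 for Psph, Mthfd2, Mthfd2l and Aldh1l2 and has the opposite sign to numbers 1 and 3 for Phgdh, Shmt2 and Mthfd1l.

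Counted per length (counts per kilobase of transcript, scaled to the same total in each library, which allows levels of different genes to be compared), Phgdh was the most abundant member in both groups, at 434.1 ± 119.9 in shCtr and 652.3 ± 146.8 in shOSGEP (SD, n = 3). In shCtr it was followed by Shmt2 (333.9 ± 97.2), Psat1 (248.2 ± 70.4) and Mthfd2 (201.8 ± 73.7). Mthfd1l (106.8 ± 28.2) and Mthfd1 (87.5 ± 24.7) came next on this scale, and Psph (63.7 ± 5.13) and Shmt1 (35.2 ± 5.76) after them. Aldh1l2 (14.5 ± 8.20) and Mthfd2l (0.984 ± 0.639) had the lowest levels per length in shCtr. Neighbours from Phgdh to Psph in this order had overlapping ranges of mean ± SD, and those from Psph to Mthfd2l did not. In shOSGEP the level of Mthfd2 (423.3 ± 91.5) came after that of Phgdh, and Aldh1l2 (83.5 ± 28.7) passed Shmt1 (26.0 ± 5.71) and was close to Mthfd1 (86.6 ± 18.1).

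The mitochondrial arm was compared with the cytosolic arm. Median Log2FC was 0.94 over the 5 mitochondrial members, 0.36 over the 3 serine synthesis members and -0.49 over the 2 cytosolic members. Over all genes it was -0.03. The mitochondrial members were split: 3 had a Log2FC above 0 and 2 below, from -0.33 (Mthfd1l) to 2.46 (Aldh1l2). Their median equalled the value of Mthfd2, with the scarce Mthfd2l (1.42) among those above it and Shmt2 (-0.15) among those below. Within numbers 1, 2 and 3, the mitochondrial median was 0.56, 1.44 and 0.43 and the cytosolic median was -0.18, -1.0 and -0.19, so the mitochondrial value was the higher each time. Without both replicate 2 libraries the medians were 0.55 for the mitochondrial, 0.68 for the serine synthesis and -0.18 for the cytosolic members. Single libraries also moved them: the mitochondrial median was 0.62 without shOSGEP replicate 2, the cytosolic median was -0.24 without shCtr replicate 2, and the serine synthesis median was 0.82 when replicate 2 of shCtr was left out, 0.15 when replicate 1 of shCtr was, and 0.16 when replicate 2 of shOSGEP was. Members of an arm are not replicates, and these medians were not tested.

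Summed per length, the mitochondrial arm was 4.93, 6.32 and 5.06 times the cytosolic arm in shCtr replicates 1, 2 and 3, and 8.64, 11.2 and 7.71 times in shOSGEP. The groups did not overlap. When Mthfd2 and Aldh1l2 were left out, the ratio was 2.81, 5.06 and 3.22 in shCtr and 3.99, 4.36 and 4.85 in shOSGEP. The groups then overlapped, with shCtr replicate 2 the highest library, and were apart without both replicate 2 libraries. Mthfd2 made up 39.8%, 19.2% and 33.6% of the mitochondrial sum in shCtr and 42.7%, 51.8% and 32.2% in shOSGEP, while Aldh1l2 made up at most 3.26% in shCtr and at least 4.88% in shOSGEP.

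A ratio of counts between a pair of enzymes within a library needs no scaling between libraries. It keeps any GC and length trend that differs between the genes. In shCtr replicate 2 that trend was -0.88 log2 units for Aldh1l2, 0.14 for Mthfd2 and 0.31 for Mthfd1. There it was 0.89 for Shmt2 and -0.1 for Shmt1. The 5 ratios were compared by a two-sided exact permutation test, for which 3 libraries against 3 cannot give a p below 0.1. Mthfd2 to Mthfd1, the mitochondrial against the cytosolic dehydrogenase, was 1.75, 1.15 and 1.49 in shCtr and 3.15, 4.76 and 2.06 in shOSGEP. The groups did not overlap, with a 2.17-fold higher ratio in shOSGEP (exact permutation p = 0.1, 0.25 adjusted over the 5 ratios). On the log2 scale this difference was 1.12, but 0.66 without both replicate 2 libraries. Aldh1l2 to Mthfd1 was 0.416, 0.143 and 0.333 against 2.39, 2.43 and 0.902, a 6.41-fold higher ratio that also did not overlap (exact permutation p = 0.1, adjusted 0.25). Its log2 difference was 2.68, and 1.98 without both replicate 2 libraries. Paired by number, an exact sign-flip test cannot give a p below 0.25 with 3 pairs. It gave this p of 0.25 for Mthfd2 to Mthfd1, Aldh1l2 to Mthfd1 and Shmt2 to Shmt1. The other ratios had a higher p.

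Shmt2 to Shmt1, the mitochondrial against the cytosolic step from serine to glycine, was 5.80, 10.0 and 7.03 in shCtr and 9.73, 12.9 and 13.6 in shOSGEP. It was higher in shOSGEP in 3 of 3 comparisons within numbers, and 1.61-fold higher in the mean, but shOSGEP replicate 1 lay just below shCtr replicate 2 (exact permutation p = 0.2, adjusted 0.333). Unlike the level of Shmt2, this ratio was higher in shOSGEP for number 2 as well, and its log2 difference was 0.69 with and 0.85 without both replicate 2 libraries. Mthfd1l to Mthfd1 was 1.20, 1.64 and 1.37 against 1.44, 1.12 and 1.48, with a ratio of means of 0.961 (exact permutation p = 0.8) and a log2 difference of -0.06, which was 0.19 without both replicate 2 libraries. Mthfd2 to its paralog Mthfd2l ran from 133.5 to 390.8 in shCtr and from 127.3 to 239.3 in shOSGEP (exact permutation p = 0.6), with groups that overlapped and a log2 difference of -0.44, which was 0.14 without both replicate 2 libraries.

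**Figure D3:**
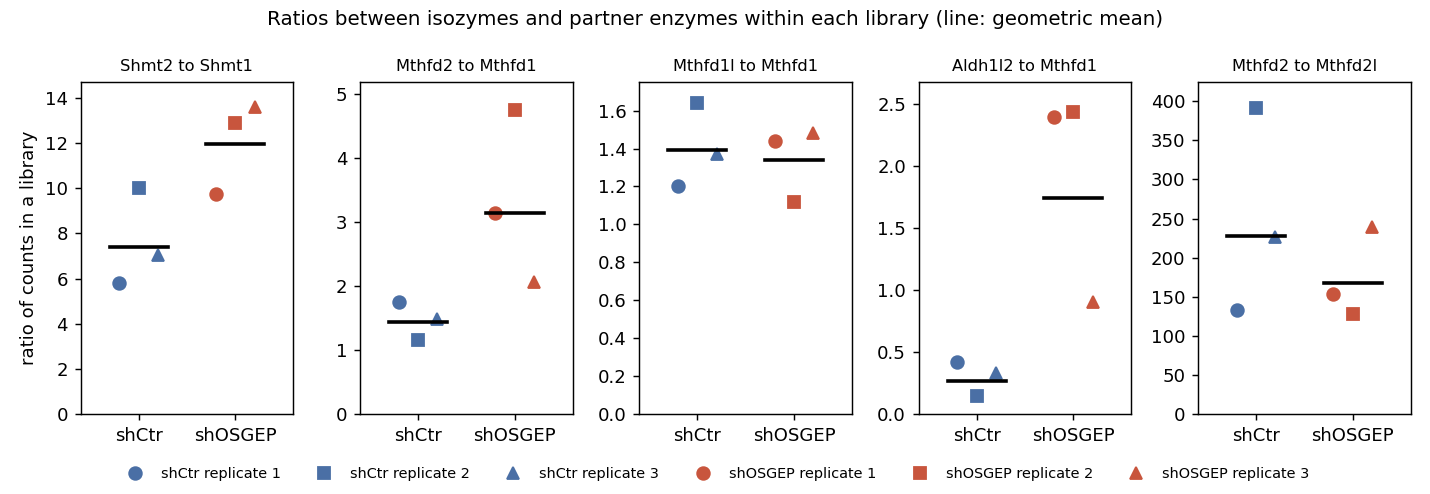
Ratio of counts between paired enzymes within each library (y axis, from 0, own scale per panel) in shCtr and shOSGEP cells, with a symbol for each library and a line for the geometric mean. The groups are apart for Mthfd2 to Mthfd1 and for Aldh1l2 to Mthfd1, and overlap for the other 3 ratios.

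**Figure D4:**
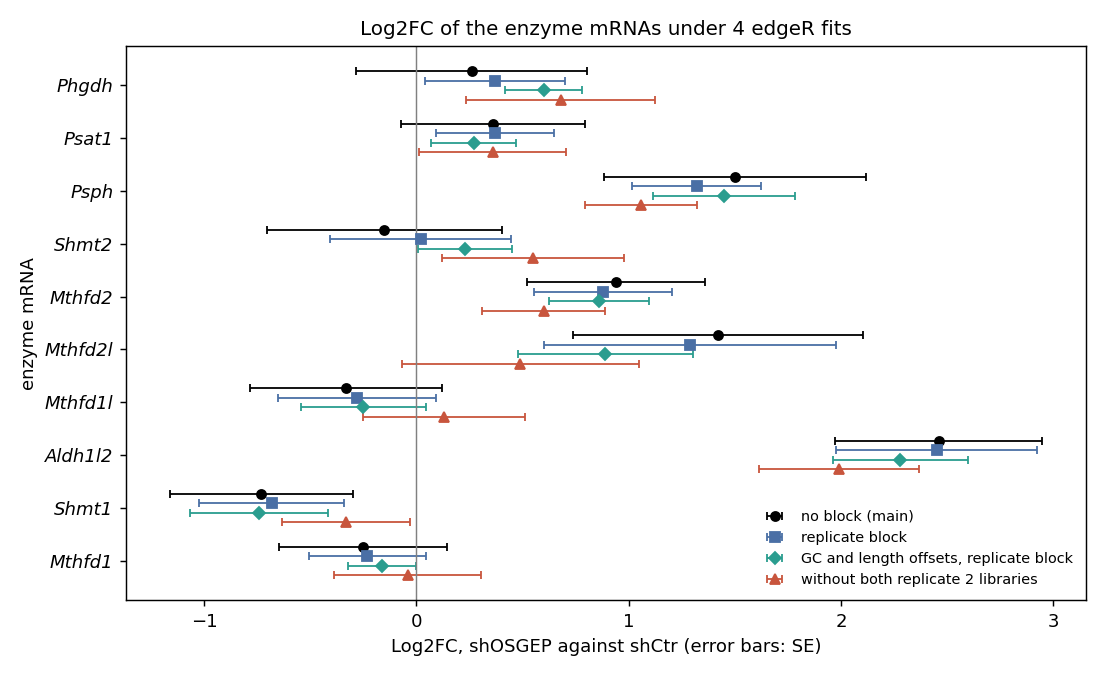
Log2FC of shOSGEP against shCtr (x axis) for each enzyme mRNA (y axis) under 4 edgeR fits, with SE as error bars: no block, a replicate block, GC and length offsets with the block, and no block without both replicate 2 libraries. Aldh1l2 (2.46, 2.45, 2.28 and 1.99), Psph and Mthfd2 stay above 0 in each, while Shmt2 (-0.15, 0.02, 0.23 and 0.55) crosses 0.

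Of 32 other genes of one-carbon metabolism, 27 were tested, and Ftcd, Gldc, Sds and Bhmt had no count in any library. A Log2FC above 0 was found for 10 (47.3% of all genes) and below 0 for 17, with a median of -0.23 and a range of -1.36 to 0.91. The study threshold was passed by 0 upwards (1.59% of all genes) and by 1 downwards, Tyms (0.426%). Groups did not overlap for Mtrr, which was higher (3.49% of all genes), and for Tyms, which was lower (2.87%). By role, 7 of 10 tested genes of folate reduction and use, 4 of 6 of folate uptake and retention, 1 of 3 of glycine cleavage, 3 of 5 of serine handling and 2 of 3 of the methionine cycle had a Log2FC below 0.

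Tyms, the thymidylate synthase that spends methylene-tetrahydrofolate, was measured at 91.4, 215.1 and 96.8 CPM in shCtr, against 56.6, 46.7 and 77.3 CPM in shOSGEP, lower in every library (Log2FC -1.16, SE 0.481, edgeR unadjusted p = 0.0416, adjusted p = 1.00). The call ended with the replicate block (Log2FC -1.06, edgeR unadjusted p = 0.057, adjusted p = 0.741) and when any single library but shCtr replicate 1 was left out, with Log2FC from -0.64 without shCtr replicate 2 to -1.39 without shOSGEP replicate 3. It ended too without both replicate 2 libraries (Log2FC -0.49, SE 0.291) and with limma-voom and sample quality weights (Log2FC -0.57, SE 0.252). Mtrr, which keeps methionine synthase active, stood at 17.8, 14.8 and 18.9 CPM against 26.2, 41.3 and 21.2 CPM (Log2FC 0.78, SE 0.436). Srr, the serine racemase, had a Log2FC of 0.91 (SE 0.576), with only shOSGEP replicate 2 far above the others (39.2 CPM against 8.70 to 15.2 CPM). Slc46a1, a proton-coupled folate transporter, had a Log2FC of -0.95 (SE 0.636), with only shCtr replicate 2 far above (40.4 CPM against 8.65 to 13.4 CPM).

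Of 3 transcription factors known to act on the pathway, Atf4 mRNA was 280.3, 244.7 and 263.2 CPM in shCtr and 488.9, 1209.5 and 480.6 CPM in shOSGEP. The groups were far apart, with shOSGEP replicate 2 the highest (Log2FC 1.47, SE 0.5, edgeR unadjusted p = 0.0182, adjusted p = 1.00). That library was also the highest for Psat1, Psph, Mthfd2, Mthfd2l, Aldh1l2, Mtrr and Srr. Within numbers 1, 2 and 3 the log2 ratio of Atf4 was 0.8, 2.3 and 0.87. Myc (Log2FC -0.21, SE 0.449) and Nfe2l2 (0.15, SE 0.464) did not pass. ATF4 protein was not measured in these data.

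The members' patterns over the 6 libraries, which share groups and replicate numbers, were compared as a description. Pearson correlations of log2 CPM were highest between Mthfd1l and Mthfd1 (0.948), Psph and Mthfd2 (0.915), Phgdh and Shmt2 (0.908) and Phgdh and Psat1 (0.907), and lowest between Mthfd2l and Shmt1 (-0.914). Among 10978 genes with a mean of at least 50 counts, Mthfd2 was closest to Fam160a1 (0.995), Ddx58 (0.995) and Prnd (0.992). Aldh1l2 was closest to Slc1a4 (0.996), a transporter of serine and other neutral amino acids, then to Gm15663 (0.986) and Arhgef25 (0.985). Psat1 was closest to Bcat1 (0.994), a branched-chain aminotransferase, then to 2700054A10Rik (0.990) and Trim35 (0.987).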

How the data were processed

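PolyA RNA was sequenced in paired reads in 6 libraries, 3 shCtr and 3 shOSGEP, from independent infections. The values deposited by the authors were whole-number counts for each Ensembl gene, without normalization: reads were trimmed with TrimGalore, aligned to GRCm38 with STAR 2.6.1d and quantified with Salmon 1.4.0. Reads that fit more than 1 transcript are shared out by the estimate of Salmon, and the annotation release is not given in the sources used here. Positions and lengths came from GENCODE M21, which held 99.4% of the identifiers. Groups and numbers came from the labels. A kit that keeps strand was not stated.

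Genes were kept by filterByExpr (minimum count 10, minimum total 15), scaled by TMM and tested two-sided with edgeR 4.0.16 (R 4.3.3) without a block, and p was adjusted by Benjamini-Hochberg over all 12669 genes. The SE was the Log2FC divided by the square root of F. The test was checked on simulated counts, drawn without an effect of the replicate number and without a GC and length trend. The check therefore does not cover these features of the libraries. Depth limits precision through the floor of 3 counts, which covers counting error only, since reads carried no molecular identifiers.

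The deviations of same-numbered libraries from their group means correlated across genes at 0.811, 0.557 and 0.196, each above the limit of 0.1. The numbers were therefore taken to pair the libraries in the comparisons within numbers and in the fits with a replicate block. The main fit had no block, because the study states none. The labels do not say what a number marks, and libraries of different numbers correlated at up to 0.491, above the 0.196 of number 3.

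Alternatives were DESeq2 1.42.0, limma-voom (limma 3.58.1) with sample quality weights, with and without the block, RLE and upper-quartile scaling, other filters, a replicate block, offsets for GC content and length (natural splines, 5 degrees of freedom each), and leaving out libraries. Named were all members, Osgep, Atf4, Myc and Nfe2l2, the 2 genes per direction of the other one-carbon list with the smallest p, and the 3 genes most correlated with each of Mthfd2, Aldh1l2 and Psat1, both with a mean of at least 50 counts. Genes that overlap a member, and the genes at 0, were named beside these. Members and lists were chosen with earlier results of these data known.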

Additional observations from a re-analysis of the deposited data

How the results depend on the processing

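Over 19 other fits and library sets, Psat1, Psph, Mthfd2, Mthfd2l and Aldh1l2 kept a Log2FC above 0, and Shmt1 and Mthfd1 below 0. Shmt2 turned positive with limma-voom (0.34), the replicate block (0.02), GC and length offsets without (0.23) and with the block (0.23) and limma-voom with the block (0.46), and ranged from -0.56 to 0.55 over left-out libraries, with 0.51 without shCtr replicate 2 and 0.03 without shOSGEP replicate 1. Mthfd1l turned positive with limma-voom and the block (0.14) and without replicate 2 (0.13), its range over left-out libraries being -0.60 to 0.13, and Phgdh ranged from -0.06 (without shCtr replicate 1) to 0.82.

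Members at an adjusted p under 0.05 numbered 0 in edgeR, 1 with DESeq2 and 6 with limma-voom and the block, which called 1403 genes and gave the replicate 2 libraries weights of 0.112 and 0.113 and 902.5 prior against 2 residual degrees of freedom, so that nearly 1 variance served all genes. DESeq2 called 14 genes and limma-voom 3. Members higher past the study threshold numbered 2, 4 with at least 10 counts in every library, 4 with offsets and the block, 5 with limma-voom and the block, and 1 to 2 over left-out libraries. The count was 1 when replicate 1 or 3 of shCtr, replicate 2 of shOSGEP or both replicate 3 libraries were left out. All genes higher past it numbered 202, 424 with limma-voom, 430 without a filter, 454 and 492 with offsets without and with the block, 945 with limma-voom and the block, and 54 to 274 over left-out libraries. All genes lower numbered 54, and 120 (DESeq2), 136, 169, 241, 375 and 497 in the same order, and 13 to 187. Other one-carbon genes past it numbered 1, 0 with limma-voom, upper-quartile scaling or the replicate block, 2 with offsets in both forms, and 0 to 1 over left-out libraries. The serine synthesis median (0.36) was 0.59 with offsets, 0.60 with offsets and the block, 0.62 with limma-voom and the block, and 0.15 to 0.82 over left-out libraries. The log2 difference of Mthfd1l to Mthfd1 (-0.06) ranged from -0.21 to 0.19, with 0.06 or 0.07 when replicate 2 of shCtr or of shOSGEP was left out and 0.19 without both, and that of Mthfd2 to Mthfd2l (-0.44) from -0.83 to 0.14. The causes were not tested. Depth limits Mthfd2l most, at 11 to 121 counts.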
